A study of Oryza sativa with 6 samples.

Results

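In roots of rice (Oryza sativa, cultivar Kitaake), 200 of 37863 gene loci were picked for a wide spread among the 3 control libraries: high in control replicate 3, intermediate in replicate 1 and low in replicate 2. They were chosen by their levels in those 3 libraries, taken as CPM, the count of a locus scaled to the library's total. A locus had to reach 20 CPM in control replicate 3 and to follow the order replicate 3 above replicate 1 above replicate 2. Of 9363 loci at that level, 2551 met the order. They were ranked by the ratio of control replicate 3 to control replicate 2, with 1 CPM added to each, and the first 200 were kept. Since these values chose the loci, the spread among the control libraries is given as a description. The choice did not use the 3 co-cultivated libraries, so only comparisons among those 3 are free of it. Comparisons between the groups also use the control libraries by which the loci were chosen.

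The co-cultivated plants grew with the floating fern Azolla filiculoides, which hosts nitrogen-fixing cyanobacteria, and the control plants grew alone. Each group had 3 libraries, described by the labels as biological replicates, with boxes of 4 plants as the unit. RNA came from the last 1 cm of the root at 15 DAT, in plants kept in unaerated hydroponic boxes. Control boxes were covered at the surface against algae, so the cover and the fern cannot be told apart. Library totals ran from 23477086 to 25120456 estimated counts in the co-cultivated group and from 21551508 to 23703813 in the control group.

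A root tip holds, from the apex upward, a zone of dividing cells, a zone where cells lengthen, and a zone where they mature. Maturing cells take up ions and water, lay down barriers in the endodermis and exodermis, and build thick walls around the xylem. Transporters, water channels and wall genes of the older zone and cell-cycle genes of the apex therefore sit at opposite ends of the same short piece of root. In these bulk samples, fewer cells of a type and less RNA per cell cannot be told apart.

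The selected loci were far apart among the control libraries. Their median level was 36.4 CPM in control replicate 1, 12.3 CPM in replicate 2 and 65.7 CPM in replicate 3. Together they made up 2.32%, 0.813% and 4.87% of the counts of those libraries. The ranking ratio was 85.3 at the top, 4.81 at the median and 3.36 at rank 200. Control replicate 1 lay nearer to replicate 3 than to replicate 2 on the log scale at 153 loci and nearer to replicate 2 at 47. The threshold cut through a continuous range. Os12g0629700 at rank 199 had a ratio of 3.39 and Os01g0850900 at rank 200 had 3.36, while Os10g0554200 at rank 201 had 3.36 and Os02g0730000 at rank 202 had 3.35.

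The co-cultivated libraries fell between these extremes. The rule had set control replicates 2 and 3 apart, so nothing is read from that position. The median of the 200 loci was 34.6 CPM in co-cultivated replicate 1, 26.7 CPM in replicate 2 and 41.0 CPM in replicate 3, and all of these lay between the medians of control replicates 2 and 3. The loci made up 2.65%, 2.04% and 2.64% of the co-cultivated libraries. A few abundant loci held much of this. The 5 with the highest mean level held 31.8% to 38.7% of the summed level in the co-cultivated libraries and 40.1% to 46.8% in the control libraries. Without those 5, the remaining loci made up 1.62%, 1.39% and 1.71% of co-cultivated replicates 1, 2 and 3, against 1.34%, 0.487% and 2.59% of control replicates 1, 2 and 3, which left the order within the control group as it was.

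**Figure D1:**
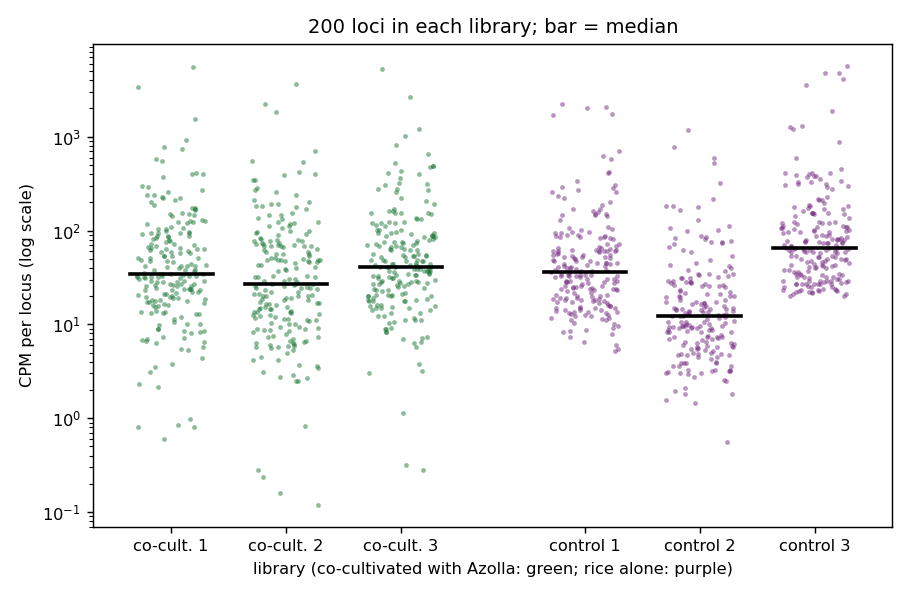
Level of each of the 200 loci in every library, in CPM on a log scale, with co-cultivated libraries in green and control libraries in purple; the bar is the median. The co-cultivated medians, 26.7 to 41.0 CPM, sit between those of control replicate 2 (12.3 CPM) and control replicate 3 (65.7 CPM). The rule set these control libraries apart, so nothing is read from that position.

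The selected loci also varied among the co-cultivated libraries. Co-cultivated replicate 2 was the lowest of its group at 128 of the 200 loci (64%), where the same held for 40.6% of all loci with at least 20 CPM in control replicate 3. Co-cultivated replicate 3 was the highest at 108 loci (54%), against 36.1% of that larger set. Both held at 80 loci (40%), against 23.1% of the larger set. The ratio of the highest to the lowest co-cultivated library, with 1 CPM added to each, had a median of 1.78 for the 200 loci and 1.24 for the larger set. A list built by turning the rule round, with 200 loci high in control replicate 2 and low in replicate 3, had co-cultivated replicate 2 lowest at 16.5% of its loci and highest at 60%. Its median ratio among co-cultivated libraries was 1.55. The pattern ran through the whole ranking: co-cultivated replicate 2 was lowest at 30 of the 50 loci of ranks 1 to 50, and at 34, 32 and 32 of the 50 in each following block. These shares are descriptions, since loci of a library are not independent of each other.

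**Figure D2:**
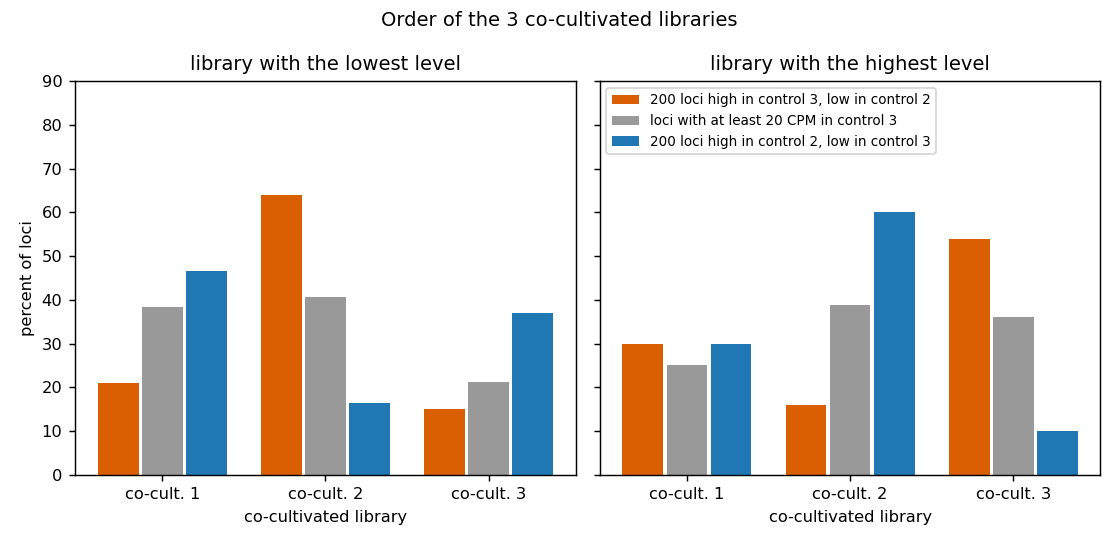
Share of loci, in percent, at which each co-cultivated library was the lowest (left) or the highest (right) of its group, for the 200 loci, all loci with at least 20 CPM in control replicate 3, and the list built with the rule turned round. Co-cultivated replicate 2 was lowest at 64% of the 200 loci and at 16.5% of the turned-round list.

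Most of the loci showed no separation of the groups. All 3 co-cultivated libraries lay within the control range at 111 loci (55.5%), against 22.3% of all loci with at least 20 CPM in control replicate 3. All 3 lay above every control library at 21 loci (10.5%), against 10.2% of the larger set, and all 3 lay below at 6 loci (3%), against 21.8%. At the other 62 loci, 1 or 2 co-cultivated libraries lay outside the control range. The choice of loci with a wide control range bears on these shares, so nothing is read from their difference to the background. The 21 loci above the range had medians of 125, 89.6 and 121 CPM in co-cultivated replicates 1, 2 and 3, against 35.4, 13.9 and 52.6 CPM in control replicates 1, 2 and 3. The 6 below it had medians of 2.18, 1.38 and 7.20 CPM in the co-cultivated libraries, against 44.9, 12.4 and 72.0 CPM in the control libraries.

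The label under which the loci were picked names functions of more mature root tissue, and it was set against markers of the apex and of older tissue. The 10 cell division genes, all detected in every library, summed to 332, 423 and 379 CPM in co-cultivated replicates 1, 2 and 3, against 383, 670 and 264 CPM in control replicates 1, 2 and 3. All 10 were highest in control replicate 2 within the control group, where the selected loci were lowest, and their sum was also highest in co-cultivated replicate 2 within the other group. Of the 4 root patterning genes, 2 were highest in control replicate 2 within the control group and 1 in control replicate 3. QHB, a marker of the quiescent centre, had 0.683 to 1.31 CPM in co-cultivated libraries and 0.253 to 1.24 CPM in control libraries. SCR1 had 8.34 to 10.5 CPM in co-cultivated libraries and 7.01 to 8.88 CPM in control libraries. SHR1 had 17.7, 19.9 and 15.1 CPM in co-cultivated replicates 1, 2 and 3, against 20.5, 25.3 and 15.9 CPM in control replicates 1, 2 and 3.

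The lists for older tissue were mixed. Of the 6 secondary wall genes, CESA4, CESA7 and CESA9, the cellulose synthases of that wall, and BC1, which is one of the 200, were highest in control replicate 3 and lowest in control replicate 2. The 3 synthases summed to 901, 786 and 982 CPM in the co-cultivated libraries, against 702, 423 and 1153 CPM in the control libraries. CAD2 and COMT1, enzymes of lignin synthesis, were instead highest in control replicate 2 and lowest in control replicate 3. CAD2 had 612, 350 and 446 CPM in co-cultivated libraries, against 373, 396 and 367 CPM in control libraries. The root hair genes CSLD1, a cellulose synthase-like protein, and EXPA17, an expansin, followed the selected loci in the control group but not in the other. CSLD1 had 45.9, 51.2 and 26.4 CPM in co-cultivated libraries, against 14.6, 6.87 and 18.8 CPM in control libraries, and EXPA17 stayed under 1 CPM in every control library.

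The 2 barrier genes differed from each other. CASP1, which organises the Casparian strip of the endodermis, had 169, 128 and 99.5 CPM in co-cultivated replicates 1, 2 and 3, against 135, 220 and 34.7 CPM in control replicates 1, 2 and 3, and so was lowest where the selected loci were highest. RCN1, an ABC transporter needed for suberin in the outer root, had 44.0, 28.0 and 59.2 CPM in co-cultivated libraries, against 19.9, 9.98 and 22.1 CPM in control libraries, highest in replicate 3 and lowest in replicate 2 of each group. The 3 silicon transporters LSI1, LSI2 and LSI6 summed to 2625, 2451 and 1516 CPM in the co-cultivated libraries, against 1274, 1244 and 811 CPM in the control libraries, and none of them was highest in control replicate 3.

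Of the 29 marker genes listed, 21 could be used, and none of these was among the 200. All of them but the locus listed as CYCB1;1, whose symbol had several entries, were matched by position. The 29 did not hold BC1 or the aquaporin TIP1;2, which are among the 200. The leaf markers and the root markers RCC3 and RMC could not be matched and are not used here. Since the lists for older tissue did not share an order, the loci are called by their rule and not by a tissue. The part of tissue composition in any result was not tested.

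**Figure D3:**
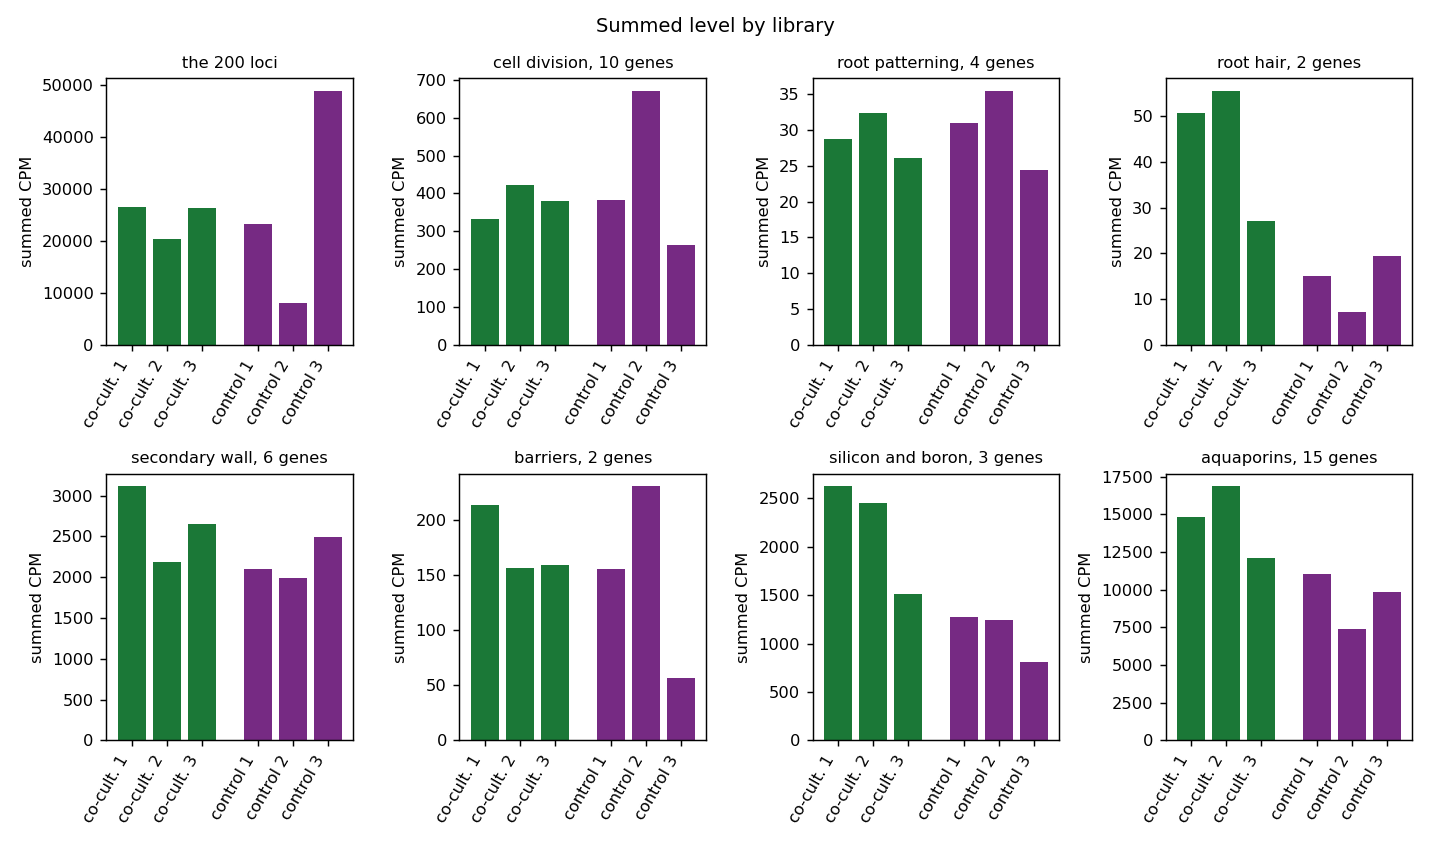
Summed level in CPM of the 200 loci and of each whole marker list in each library, co-cultivated in green and control in purple, each panel with its own axis from 0. Within the control group the cell division list peaks in replicate 2 (670 CPM) and the 200 loci in replicate 3, while the lists for older tissue differ in their order.

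Names could be given to 9 of the 200 loci. The count table holds identifiers without names, so a name is given where a listed symbol lies at the matching place in a gene table of another assembly. Of the 9, 8 had a single entry there, and the symbol AMT1;3 had several, so that locus is written as listed as AMT1;3. The other 191 include 3 with a listed symbol that could not be matched. The named genes are transporters and channels, chitinases, and single genes of the wall and of metal chelation. Only genes on the lists could be named, so these functions are not read as those of the 200 loci. By edgeR's quasi-likelihood test with group alone, none of the 9 was called as different between co-cultivated and control roots. Of all 24615 loci tested, 2.63% were called. PT4, AKT1 and BC1 had an unadjusted p under 0.05, as had 10.2% of all loci in each direction. DESeq2 called BC1 higher and no other of the 9, against 6.17% of the loci it tested higher and 4.13% lower. Nothing is read from these counts.

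PT4, a phosphate transporter of the Pht1 family, had 86.4, 69.5 and 28.1 CPM in co-cultivated replicates 1, 2 and 3, against 12.3, 1.81 and 25.3 CPM in control replicates 1, 2 and 3. The groups did not overlap, though co-cultivated replicate 3 and control replicate 3 were close. The log2 fold change was 2.26 ± 0.83 (SE), with an edgeR adjusted p of 0.190. The phosphate list holds Pht1 transporters and the SPX proteins that sense phosphate status. Among its 14 tested genes, edgeR called 4 higher (PT3, PT6, PT10 and SPX2) and 0 lower. DESeq2 called 9 higher and 0 lower. The median log2 fold change by edgeR was 2.06. PT6, another Pht1 transporter, had 14.8, 13.6 and 3.90 CPM in co-cultivated libraries, against 0.577, 0.278 and 1.27 CPM in control libraries (log2 fold change 3.95, edgeR adjusted p = 0.0359). PT2 had 191, 167 and 83.6 CPM in the co-cultivated libraries, against 36.4, 52.7 and 19.0 CPM in the control libraries. Unlike PT4, PT2 was lowest in control replicate 3.

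AKT1, the inward-rectifying potassium channel of the root, had 129, 106 and 122 CPM in co-cultivated libraries, against 286, 112 and 410 CPM in control libraries. The co-cultivated values were close together and lay near control replicate 2. The log2 fold change was −1.15 ± 0.42 (SE), with an edgeR adjusted p of 0.188, which became 0.0192 without control replicate 2. The rule picked the loci for a low level in that library, so nothing is read from the smaller value. HAK1, a high-affinity potassium transporter, was called higher in the same fit, with 831, 812 and 607 CPM in co-cultivated libraries against 233, 149 and 337 CPM in control libraries (log2 fold change 1.68, edgeR adjusted p = 0.0465). HAK1 was the 1 gene called by edgeR among the 5 tested of the potassium and sodium list, where DESeq2 called 2 higher and 0 lower.

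The locus listed as AMT1;3, an ammonium transporter of the root, had 238, 541 and 209 CPM in co-cultivated libraries, against 151, 59.7 and 403 CPM in control libraries. It was highest in co-cultivated replicate 2, unlike most of the 200 loci, and the groups overlapped. Its log2 fold change was 0.71 ± 0.68 (SE), with an edgeR adjusted p of 0.598. AMT1;1, a relative outside the selection, had 137, 257 and 106 CPM in co-cultivated libraries, against 88.0, 81.3 and 124 CPM in control libraries. GLN1;2, a cytosolic glutamine synthetase that fixes ammonium in roots, had 1994, 2698 and 1602 CPM in co-cultivated libraries, against 1205, 884 and 2597 CPM in control libraries. All 3 were highest in co-cultivated replicate 2 of their group, and in control replicate 3 of the other. Of the 10 tested genes of the list of ammonium uptake and nitrogen assimilation, 0 were called by edgeR in either direction. NIA1, a nitrate reductase, and GLT2 were the 2 below an unadjusted p of 0.05 and the 2 called higher by DESeq2.

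TIP1;2, a water channel of the vacuole membrane, had 288, 402 and 276 CPM in co-cultivated libraries, against 255, 74.8 and 394 CPM in control libraries, with a log2 fold change of 0.44 ± 0.53 (SE), an edgeR adjusted p of 0.677, and values of 0.014 without control replicate 2 and 1.00 without control replicate 3. Its close relative TIP1;1 was more even, with 1721, 2129 and 1757 CPM in co-cultivated libraries against 1453, 721 and 1348 CPM in control libraries. The 15 aquaporins matched summed to 14860, 16865 and 12110 CPM in co-cultivated libraries, against 11037, 7409 and 9842 CPM in control libraries. Within the control group 5 of the 15 were highest in replicate 3, and TIP1;2 was the 1 matched aquaporin among the 200. Of the 14 tested, edgeR called 0 in either direction; 6 had an unadjusted p under 0.05, and DESeq2 called 1 higher, PIP2;6.

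ZIP1, a metal transporter of the ZIP family, had 121, 72.0 and 70.7 CPM in co-cultivated libraries, against 71.9, 14.6 and 74.3 CPM in control libraries. Leaving control replicate 2 aside, the libraries of both groups were close, except for the high co-cultivated replicate 1. The log2 fold change was 0.75 ± 0.56 (SE), with an edgeR adjusted p of 0.499. ZIP5, a relative that carries zinc, was called higher, with 14.7, 23.6 and 11.8 CPM in co-cultivated libraries against 2.84, 1.21 and 1.14 CPM in control libraries (log2 fold change 3.31, edgeR adjusted p = 0.0153). Of the 8 tested genes of the list of other metals, 3 were called higher and 0 lower by edgeR.

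NAS3, a nicotianamine synthase that makes the metal chelator nicotianamine, had 12.9, 16.8 and 14.1 CPM in co-cultivated libraries, against 23.4, 10.1 and 37.5 CPM in control libraries. All 3 co-cultivated values lay inside the control range, and the log2 fold change was −0.67 ± 0.42 (SE) with an edgeR adjusted p of 0.419. Its relatives NAS1 and NAS2 were in another range. NAS1 had 26.9, 0.349 and 0.159 CPM in co-cultivated libraries, against 2849, 1677 and 3109 CPM in control libraries. NAS2 had 42.3, 1.48 and 1.01 CPM in co-cultivated libraries, against 4433, 2007 and 5148 CPM in control libraries. Of the 14 tested genes of the iron list, which NAS1 to NAS3 belong to, edgeR called 1 higher and 7 lower. NAS1 and NAS2 were not among them (edgeR adjusted p = 0.0740 and 0.0581). DESeq2 called 1 gene of that list higher and 9 lower. All 3 synthases had their highest control value in replicate 3 and their lowest in replicate 2.

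CHT2 and CHT8 are chitinases, enzymes that cut the chitin of fungal walls. CHT2 had 734, 394 and 650 CPM in co-cultivated libraries, against 406, 165 and 884 CPM in control libraries, and its log2 fold change, 0.32 ± 0.56 (SE) with an edgeR adjusted p of 0.794, turned negative without control replicate 2. CHT8 had 41.9, 12.1 and 114 CPM in co-cultivated libraries, against 87.0, 29.1 and 214 CPM in control libraries. In both groups CHT8 was highest in replicate 3 and lowest in replicate 2, and its log2 fold change was −0.97 ± 0.88 (SE), with an edgeR adjusted p of 0.580. With the replicate number as a block in the edgeR test, its log2 fold change was −1.045 and its adjusted p 0.0272. The block can take up control spread that the rule chose, so nothing is read from that value. CHT1, outside the selection, had 27.2, 16.2 and 69.0 CPM in co-cultivated libraries, against 58.5, 35.1 and 38.9 CPM in control libraries. Of the 11 tested immunity genes, 0 were called by edgeR without the block or by DESeq2 in either direction, and 0 had an unadjusted p under 0.05 by edgeR without the block.

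BC1, a COBRA-like protein that shapes cellulose assembly in secondary walls, had the most even co-cultivated values of the 9 relative to its mean. It had 97.7, 89.6 and 97.5 CPM in co-cultivated libraries, against 35.4, 13.9 and 52.6 CPM in control libraries, and the groups did not overlap. The means were 94.9 ± 4.64 CPM in co-cultivated libraries and 34.0 ± 19.4 CPM in control libraries (SD, n = 3 each). The log2 fold change of 1.51 ± 0.42 (SE) had an edgeR adjusted p of 0.114, and an adjusted p of 0.00933 with DESeq2. Without control replicate 2, a library that the rule used, the edgeR adjusted p was 0.0406, from which nothing is read. Of the 6 tested genes of the secondary wall list, 0 were called by edgeR in either direction, with BC1 the 1 below an unadjusted p of 0.05 and the 1 called by DESeq2.

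**Figure D4:**
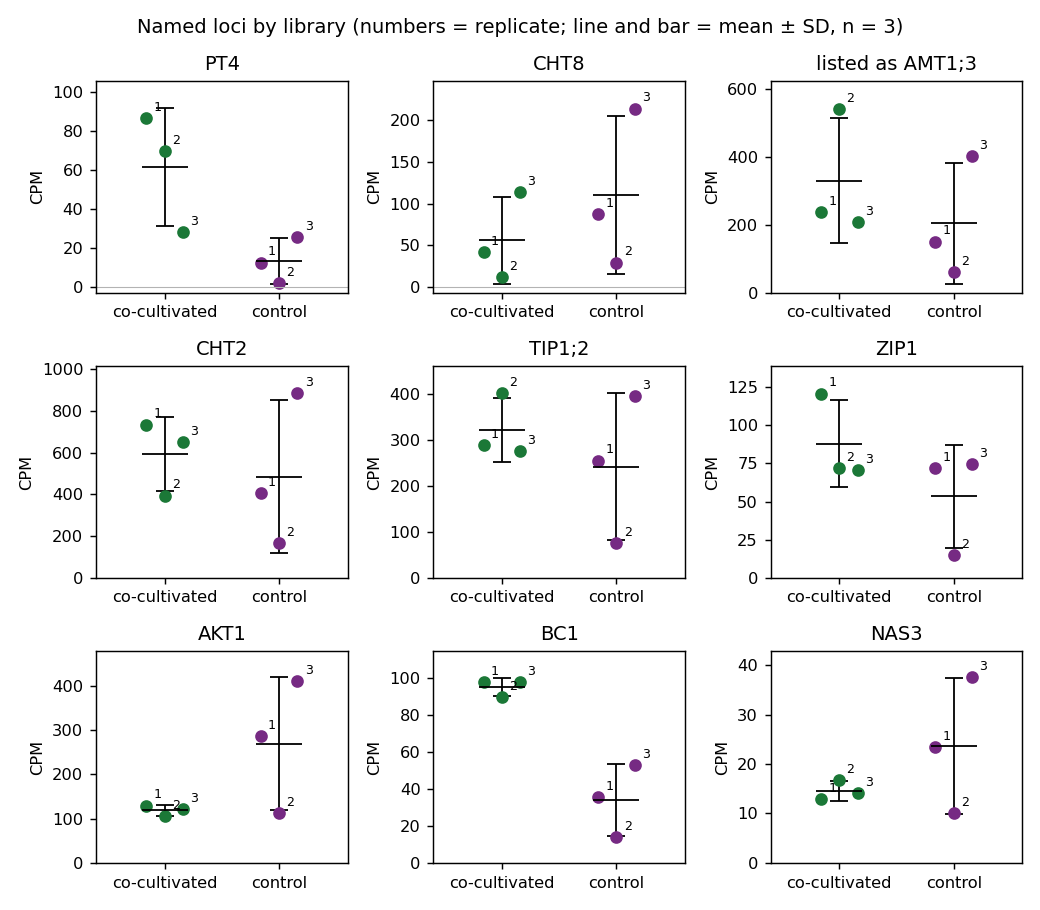
Level in CPM of the 9 named loci in each library, co-cultivated in green and control in purple, with replicate numbers, the mean and the SD (n = 3 each). PT4 and BC1 are the 2 whose groups do not overlap. BC1 had 89.6 to 97.7 CPM in co-cultivated libraries and 13.9 to 52.6 CPM in control libraries. Of all loci with at least 20 CPM in control replicate 3, 10.2% had every co-cultivated library above the control range and 21.8% below it.

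The highest-ranked loci have no name here. Os03g0836800, at rank 1, had 142, 99.1 and 89.4 CPM in co-cultivated libraries, against 89.7, 1.58 and 219 CPM in control libraries. Its very low level in control replicate 2 was not seen in any co-cultivated library. Os02g0583700, at rank 2 and the most abundant of the 200 in control replicate 3, had 269, 193 and 486 CPM in co-cultivated libraries, against 1715, 180 and 5681 CPM in control libraries. All 3 co-cultivated values lay above control replicate 2 and well below the other control libraries. The edgeR adjusted p of its log2 fold change of −2.99 ± 1.06 (SE) was 0.175, and 0.0358 without control replicate 2. Since the rule used that library, nothing is read from the smaller value.

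All 200 loci could be tested between the groups. By edgeR, 0 were called higher, where 1.46% of the 24615 loci tested were, and 3 were called lower (1.5%), where 1.17% were; in either direction 2.63% of all loci tested were called. At an unadjusted p under 0.05 there were 16 higher and 16 lower, 8% in each direction, against 10.2% of all loci in each. DESeq2 called 9 higher (4.5%), against 6.17% of the loci it tested, and 10 lower (5%), against 4.13%. The fold change was positive at 82 loci and negative at 118. Its median was −0.16 on the log2 scale, against −0.03 over all loci tested. The median standard error was 0.58 for the 200 loci and 0.26 over all loci. The choice of loci widened the control spread that enters this test. The loci also varied more among the co-cultivated libraries, with a median ratio of 1.78 against 1.24 for loci with at least 20 CPM in control replicate 3. The part of each in the standard error was not tested. Nothing about the loci is read from these counts, and the sign of the median depends on single libraries: it was 0.59 without control replicate 3 and −0.61 without control replicate 2.

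The 3 loci called lower were nearly silent in co-cultivated roots. They were singled out after their values were seen. Os10g0439924 had 0.809, 0.159 and 0.281 CPM in co-cultivated libraries, against 23.9, 9.47 and 34.7 CPM in control libraries (log2 fold change −5.73 ± 0.71 (SE), edgeR adjusted p = 0.0115). Its co-cultivated values rest on 19, 4 and 7 counts. Os01g0191200 had 0.852, 0.279 and 0.321 CPM in co-cultivated libraries, against 55.3, 8.40 and 63.3 CPM in control libraries (log2 fold change −6.42 ± 0.91, edgeR adjusted p = 0.0184). Os05g0541400 had 0.596, 0.239 and 1.13 CPM in co-cultivated libraries, against 13.6, 4.78 and 20.1 CPM in control libraries (log2 fold change −4.27 ± 0.69, edgeR adjusted p = 0.0282). The co-cultivated values of Os01g0191200 rest on 20, 7 and 8 counts, and those of Os05g0541400 on 14, 6 and 28. No co-cultivated library reached even the lowest control library at any of the 3 loci. Leaving out 1 library took some of these calls past the threshold, with fewer loci called in most such fits, while the fold changes stayed large. Over the 6 fits they ran from −6.65 to −5.28 for Os10g0439924, from −7.11 to −6.00 for Os01g0191200 and from −4.89 to −3.77 for Os05g0541400. With control replicate 1 left out, the edgeR adjusted p was 0.0554 for Os10g0439924, 0.0760 for Os01g0191200 and 0.105 for Os05g0541400. With co-cultivated replicate 1, 2 or 3 left out, it was 0.0764, 0.0624 or 0.0719 for Os01g0191200. For Os05g0541400 it was 0.139, 0.0666 or 0.0559, while Os10g0439924 stayed under 0.05. With limma-voom on all 6 libraries, the adjusted p was 0.105 for Os01g0191200, 0.068 for Os05g0541400 and 0.0416 for Os10g0439924.

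In the other direction, the 2 loci of smallest p did not pass by edgeR with group alone. They were called by DESeq2, and by edgeR with the replicate block. Nothing is read from the calls with the block, which can take up control spread that the rule chose. Os09g0409100 had 574, 94.9 and 525 CPM in co-cultivated libraries, against 25.3, 15.6 and 68.9 CPM in control libraries (log2 fold change 3.47 ± 0.81 (SE), edgeR adjusted p = 0.0743, and 0.0452 without co-cultivated replicate 2). Its DESeq2 adjusted p was 2.2e-05. Os07g0154100 had 172, 25.4 and 85.2 CPM in co-cultivated libraries, against 14.2, 5.66 and 21.9 CPM in control libraries (log2 fold change 2.79 ± 0.75, edgeR adjusted p = 0.102). Its DESeq2 adjusted p was 0.00079. Both were lowest in replicate 2 of either group, and neither overlapped between the groups.

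**Figure D5:**
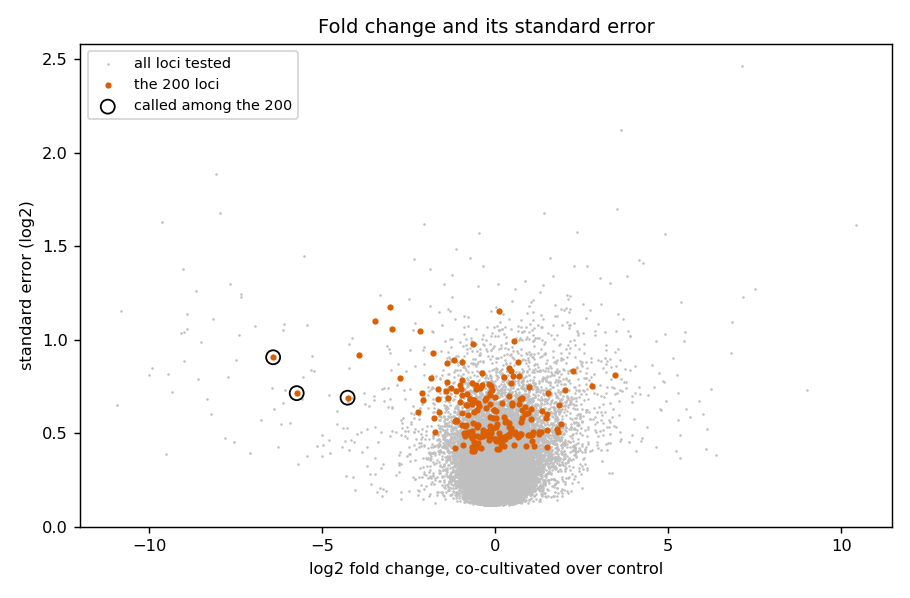
Log2 fold change, co-cultivated over control, against its standard error for all 24615 loci tested (grey) and the 200 loci (orange), with the 3 loci called lower circled. The 200 loci have a median standard error of 0.58 and all loci 0.26.

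The loci came from all 12 chromosomes. Chromosome 10 held 9.5% of the 200 and 5.59% of all loci, and chromosome 2 held 7% and 11.1%. Some lay side by side: 31 of the 200 formed 14 runs in which neighbouring members were at most 5 rows of the table apart, the longest with 4 loci on chromosome 3. Neighbours can be near-identical copies between which reads are divided, and 12 of the 200 loci (6%) had a count more than 1e-06 away from a whole number in some library, against 6.56% of all loci. At ranks 193 and 194, Os12g0575300 and Os12g0575400 had the same estimated count in every library, such as 2503.83 in co-cultivated replicate 3. The counts of loci given above hold both, though their values are not separate measurements.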

How the data were processed

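The deposited table by the authors held estimated counts per RAP-DB locus, with 1 column for each of 6 libraries. The sample's description in the labels gave its column, and 0 columns were left over. Per the submitters' processing notes, the build was IRGSP-1.0 and DESeq2 1.28.1 was used by the authors. For the aligner, counter and strand setting the sources used here give nothing. Estimated counts were rounded to whole numbers for every test. CPM is on column totals.

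The loci, the gene lists and the tests were chosen with earlier results of these data known. The comparison used edgeR 4.0.16 in R 4.3.3 (TMM, filterByExpr, two-sided quasi-likelihood F test with group as covariate, Benjamini-Hochberg adjusted p under 0.05 over 24615 loci), with DESeq2 1.42.0, limma-voom (limma 3.58.1), other scalings and filters, a replicate block and each library left out as alternatives. On counts simulated for this comparison over 24242 loci, with 50 loci altered at each size, the test found 0 at 1.5-fold, 4 at 2-fold, 37 at 4-fold and 47 at 8-fold, and 6 of its 94 calls were false. No pair of libraries of a group agreed within sampling noise (chi-square per locus 23.1 to 121). P-values measure the spread between these boxes.

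Every member with a usable symbol was named, with the first 2 ranks, the 4 loci around rank 200 and the 2 loci of smallest p in each direction without a symbol. The third locus called lower, and relatives of named genes outside the 200, were picked after their values were seen. The 319 pairs of symbol and locus were written from memory. A match needed the chromosome given in the identifier and a place within 250 kb of that interpolated from the other pairs in a gene table of assembly ASM3414082v1; 197 passed, 10 had several entries, 97 had none and 15 lay too far. The 250 kb limit was set after the distances were seen; the 8 members that passed lay within 92.5 kb. The check cannot tell adjacent copies apart, so names rest on the pairs. Another 14 pairs, drawn up once the members were known and partly after the gene table had been searched near them, were dropped, because for them the check would not have been independent. No sequences or coordinates are given, as no genome of the files' build was used here.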

Additional observations from a re-analysis of the deposited data

How the results depend on the processing

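On the simulated counts, changes of 2-fold or less were mostly not called. The altered loci were not restricted to the 200, which had a median standard error of 0.58, against 0.26 over all loci. Larger changes could therefore also go uncalled among the 200. Os09g0409100, with a log2 fold change of 3.47, was not called by edgeR with group alone (adjusted p = 0.0743). DESeq2 called 1518 loci higher and 1017 lower, and 9 and 10 of the 200. With limma-voom 309 loci were called higher and 250 lower, with 0 of the 200 higher and 1 lower, and the median log2 fold change of the 200 was 0.11. Whether libraries of the same replicate number belong together was not tested. The correlation of deviations between libraries of the same number was 0.06, 0.15 and 0.17. Between libraries of different number it ran from −0.20 to 0.08. Co-cultivated replicates 2 and 3 correlated best with the control of their own number, and co-cultivated replicate 1 with control replicate 3 (0.08). With the replicate block, 3 of the 200 were called higher (1.5%, against 1.64% of all loci) and 11 lower (5.5%, against 1.20%). The median log2 fold change of the 200 was 0.11. By this edgeR fit CHT8 was called lower (adjusted p = 0.0272), and Os09g0409100 (0.0291) and Os07g0154100 (0.0379) higher. The block can take up control spread that the rule chose, so nothing is read from these counts and calls. Leaving out 1 library at a time gave 56 to 361 loci higher and 83 to 493 lower, with 0 to 1 of the 200 higher and 0 to 13 lower. Without control replicate 2, 13 of the 200 and 493 of all loci were called lower. The rule used that library, so nothing is read from the 13. Without control replicate 1, 0 of the 200 and 83 of all loci were called lower. The median ran from −0.61 to 0.59, with 0.59 without control replicate 3. Over the same 6 fits CHT2 ran from −0.10 (control replicate 2 left out) to 1.09, and Os03g0836800 from −0.46 (control replicate 2 left out) to 1.32, with −0.13 where co-cultivated replicate 1 was left out. AMT1;3 as listed ran from 0.15 (co-cultivated replicate 2 left out) to 1.69, and with control replicate 3 left out CHT8 came to −0.03 and NAS3 to −0.16, from lowest values of −1.98 and −1.04. A minimum of 50 CPM kept 125 of the 200 loci and the other settings of the rule 145 to 199. Of the first 100 loci, 6% had all co-cultivated libraries above the control range. The cause of these changes was not tested. Among the 16 loci followed singly, 184 of the alternative values kept direction and call, 10 gained a call, 11 lost one and 3 changed sign.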
